A study of Mus musculus with 21 samples.

Results

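Mouse embryonic stem (ES) cells carrying LbNOX were compared with cells carrying an empty vector, both grown in the medium that the labels call SL. The comparison takes in 6 of the 21 libraries of the series, 3 per group, which are all those that the labels place in these 2 groups. Cells had been kept in Knockout DMEM with fetal serum and leukaemia inhibitory factor (LIF). For the experiment both groups spent 48 h in a DMEM and NB mixture that held 10% dialysed serum and 0.2 mM pyruvate. Neither group carried an engineered deletion according to its labels, so the groups differ by label only in the LbNOX insert. The parental line, its sex, the promoter of the LbNOX construct, and whether a culture was 1 clone or a pool are not stated by the labels. They also do not say that the 3 libraries of a group came from separate cultures, so every p-value below measures only the spread between libraries.

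LbNOX is a bacterial enzyme that passes electrons from NADH to oxygen and leaves NAD+ and water. Glycolysis needs NAD+, and cells regain it mainly by reducing pyruvate to lactate with lactate dehydrogenase, or by moving electrons into mitochondria through the malate-aspartate and glycerol phosphate shuttles. Added pyruvate and LbNOX therefore supply the same thing by different routes, an outlet for NADH. ES cells in serum and LIF hold the naive pluripotent state unevenly, with cells that differ in the level of factors such as Nanog, Klf4 and Esrrb.

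Poly(A) RNA was sequenced and reads were counted per gene. Total counts ran from 16521594 to 30008895 in the vector libraries and from 25626936 to 28758660 in the LbNOX libraries. Of 40838 genes in the table, 16119 had enough reads to be tested. The LbNOX sequence is not among the genes of the table, so its own RNA was not analysed here. Levels below are counts relative to the library total (CPM), after scaling by TMM factors, which correct for composition. Differences are log2 fold changes, LbNOX minus vector, with the standard error (SE) of the edgeR fit, and a gene is called where its p-value, adjusted by Benjamini-Hochberg over all 16119 genes, is under 0.05.

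The libraries held the RNA of ES cells. Pou5f1, the central pluripotency factor, stood at 1520, 1380 and 1450 CPM in the vector libraries and at 1480, 1530 and 1340 CPM in the LbNOX libraries. Sox2 lay between 523 and 566 CPM, Nanog between 189 and 250 CPM and Zfp42, a marker of the naive state, between 210 and 272 CPM. Some defining genes of other cell types were at or near the limit of detection and others were expressed. T and Msgn1 of mesoderm had 0 reads in every library, and the fibroblast genes Lum and Postn had 0 and 1 reads in the vector group and 4 and 7 in the LbNOX group. The summed level of the 6 mesoderm markers tested, of 11 listed, was 12.3 to 14.3 CPM in vector and 13.8 to 16.9 CPM in LbNOX libraries. The 12 fibroblast markers tested of 14 listed, among them widely expressed matrix and cytoskeleton genes, summed to 1990 to 2020 CPM in vector and 1960 to 2130 CPM in LbNOX libraries. The 16 endoderm markers tested of 17 listed, which include basement membrane genes, summed to 1700 to 1740 CPM and 1710 to 1790 CPM in the same order. The 9 neural markers tested summed to 240 to 274 CPM in vector and 248 to 280 CPM in LbNOX libraries, with Tubb3 at 40.6 to 48.1 CPM. The 11 trophoblast markers tested summed to 625 to 693 CPM and 632 to 772 CPM, with Hand1 at 4.46 to 8.86 CPM and Eomes at 5.13 to 6.18 CPM.

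The edgeR fit of the 6 libraries called few transcripts between LbNOX and vector cells, and those few lay on the sex chromosomes and on chromosome 8. Of the 16119 genes, 6 were called (0.0372%), 1 higher (0.0062%) and 5 lower (0.031%) in LbNOX cells. An unadjusted p under 0.05 was found for 325 genes with a higher level (2.02% of those tested) and 280 with a lower level (1.74%). The 5 genes that fell were Ddx3y and Uty on the Y chromosome and Klhl13, Pnma5 and Efhc2 on the X chromosome. Pou4f2 on chromosome 8 was the 1 gene that rose. The location depends on the test: DESeq2 called 15 genes, 6 of them on other chromosomes, limma voom 13 with 3 elsewhere, and edgeR without a filter on low counts 24 with 10 elsewhere.

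Ddx3y encodes a DEAD-box RNA helicase whose close relative Ddx3x lies on the X chromosome. Its level was 6.53, 6.19 and 7.25 CPM in the vector libraries and 1.96, 1.43 and 1.01 CPM in the LbNOX libraries. The groups stood well apart, and the fitted difference was -2.19 ± 0.211 (SE; adjusted p = 0.00221, edgeR). In bulk RNA, fewer cells with a transcript and less of it in each cell cannot be told apart. Uty, a Y-linked relative of the histone demethylase Kdm6a, had 6.93, 5.48 and 7.44 CPM in vector and 2.23, 1.43 and 2.05 CPM in LbNOX cells, a difference of -1.80 ± 0.196 (adjusted p = 0.00435). Eif2s3y, which encodes a subunit of translation initiation factor eIF2, was also lower in every LbNOX library. It had 18.6, 15.1 and 16.7 CPM in vector against 9.91, 12.2 and 9.73 CPM in LbNOX cells (-0.67 ± 0.115; adjusted p = 0.104, edgeR). It was called in 4 of 16 alternatives, with an adjusted p of 0.000898 in DESeq2 and 0.029 in limma voom (range 3.71e-06 to 0.688). The size of the difference was thus unequal along the Y chromosome. Of its 295 genes in the table, 35 had a read in any library and 6 could be tested, among them 3 predicted loci. Those 3 differed by 0.03 ± 0.211, 0.06 ± 0.281 and -0.74 ± 0.356. The first, at 35 to 55.7 CPM in vector and 38.8 to 55.5 CPM in LbNOX cells, was the most abundant Y gene tested. The first 2 were highest in vector replicate 2 and LbNOX replicate 3. How much sequence these 3 loci share with other genes was not measured, so their counts are uncertain. Kdm5d had 0 reads. Uba1y had 24 reads over the vector and 33 over the LbNOX libraries, Usp9y had 15 and 11, and Zfy1 had 3 and 0. Counts of these Y genes were too low to be tested.

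The X-linked partners of Y genes, which encode near relatives of the Y-linked proteins, showed no difference like that of Ddx3y and Uty. Only Ddx3x, Kdm6a and Eif2s3x among them pair with Y genes that could be tested. All 7 (Ddx3x, Kdm6a, Kdm5c, Eif2s3x, Usp9x, Zfx and Uba1) had a 95% interval within 25% either way, that is inside a ratio of 5 to 4. Ddx3x lay between 1270 and 1420 CPM in both groups, with a difference of 0.02 ± 0.0457. Xist, the RNA that coats an inactive X chromosome, was low in every library, with 7.76, 11.4 and 10.8 CPM in vector and 11.4, 9.12 and 11.9 CPM in LbNOX cells (0.13 ± 0.153).

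The X-linked genes that fell did so without a shift of their chromosome. Klhl13, which encodes a substrate adaptor of a cullin ubiquitin ligase active in mitosis, had 78.0, 80.1 and 81.0 CPM in the vector libraries and 39.7, 38.8 and 51.1 CPM in the LbNOX libraries. LbNOX replicate 3 was the highest of its group, and the groups did not overlap (-0.88 ± 0.0927; adjusted p = 0.00973, edgeR). Pnma5, of a gene family derived from a retrotransposon gag gene, had 2.43, 2.10 and 2.84 CPM against 0.313, 0.594 and 0.521 CPM (-2.35 ± 0.294; adjusted p = 0.0104). Of its 30-base stretches, 29.6% also occur in other genes, most often in its relative Pnma3, so its count depends on how shared reads were assigned. Efhc2, a ciliary EF-hand protein gene, had 50 reads over the vector libraries and 3 over the LbNOX libraries, with 1 read in each of the latter. The ratio of vector to LbNOX was 20.9 (95% exact binomial interval 6.76 to 105, counting error only; adjusted p = 0.0218). For 562 X-linked genes tested the median difference was -0.0144, and 17 had a lower and 8 a higher level at an unadjusted p under 0.05. Over all genes tested the shares at that threshold were 1.74% lower and 2.02% higher.

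Several further X-linked genes were lower in all 3 LbNOX libraries without passing the edgeR test. The Rhox genes are a cluster of X-linked homeobox genes known from testis, placenta and ES cells. Rhox5 had 3.43, 3.28 and 3.14 CPM in vector and 0.666, 0.524 and 1.42 CPM in LbNOX cells (-1.91 ± 0.305; adjusted p = 0.0648, edgeR). It was called in 6 of 16 alternatives, DESeq2 (adjusted p = 3.81e-05) and limma voom (0.00327) among them, over a range of 3.2e-09 to 0.624. Rhox9 differed by -1.95 ± 0.385 and Rhox6 by -1.73 ± 0.355, both from under 2 CPM in each vector library. These cluster members share sequence with each other, 23.9% of the stretches of Rhox6 and 9.32% of those of Rhox9, so they are not separate measurements. Fmr1nb, a cancer-testis gene named after its values were seen, had 65 reads over the vector libraries and 9 over the LbNOX libraries and did not pass the test (-3.16 ± 0.5; adjusted p = 0.0648, edgeR). DESeq2 (adjusted p = 0.00782) and limma voom (0.0365) called it, 2 of the 4 of 15 alternatives that did (range 4.39e-05 to 0.455). Of other X-linked genes chosen after seeing values, Usp26 (-0.81 ± 0.169) and Nxf3 (-1.42 ± 0.331) were lower in every LbNOX library, and Nxf7, a relative of Nxf3, was higher in every one (0.69 ± 0.298; adjusted p = 1). Such falls at low counts were not particular to the X chromosome. Medag on chromosome 5, also chosen after seeing values, had 32 reads over the vector and 2 over the LbNOX libraries (-4.35 ± 0.771). Arl14epl on chromosome 18 had 98 and 26 reads (-2.18 ± 0.409), and neither gene was called by edgeR. Of 14 germline genes tested, 3 were lower and 0 higher at an unadjusted p under 0.05, and the 3 were these Rhox genes. Of all genes tested, 1.74% were lower and 2.02% higher at that threshold. The median of the 14 was -0.0159, against -1.08e-05 over all genes tested.

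**Figure D1:**
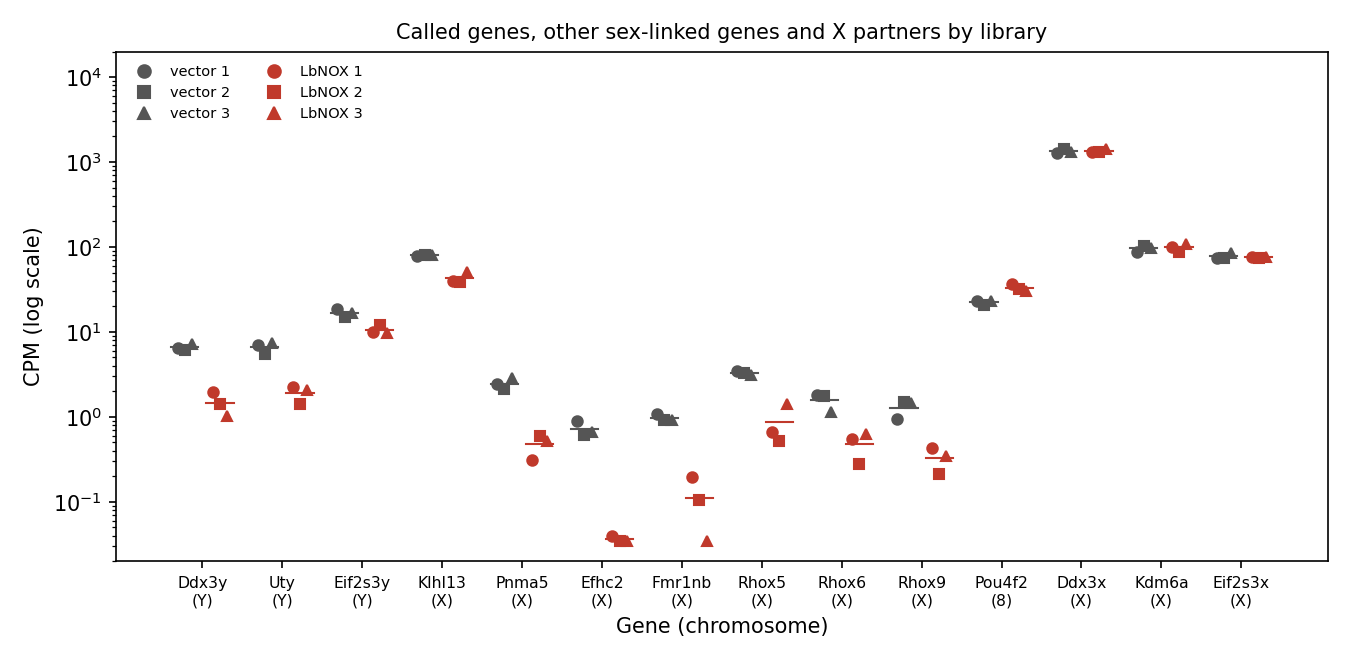
CPM (log scale) of each library for the 6 called genes, for Eif2s3y, Fmr1nb and 3 Rhox genes that were not called, and for 3 X-linked partners of Y genes. Symbols are replicates 1 to 3 in grey for vector and red for LbNOX, and bars are group means. The 2 groups do not overlap for the first 11 genes, whereas the ranges of the 3 partners do.

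Pou4f2, a POU-domain transcription factor known from retinal and sensory neurons, rose from 23.1, 20.9 and 23.0 CPM in vector to 36.4, 31.9 and 30.7 CPM in LbNOX cells (0.56 ± 0.0815; adjusted p = 0.0329, edgeR). It was the only 1 of the 9 neural markers tested with an unadjusted p under 0.05. Map2 differed by 0.15 ± 0.0771 and its relative Pou4f1 by -0.22 ± 0.131. Among the genes next by p-value, 4 more lay on chromosome 8 and all 4 were higher. Col4a1 and Col4a2 encode the chains of basement membrane collagen IV and lie head to head: their RefSeq promoter windows of 300 bases overlap by 78 bases. Col4a1 had 94.0, 95.4 and 91.2 CPM in vector and 110, 113 and 109 CPM in LbNOX cells (0.24 ± 0.0455; adjusted p = 0.174). Col4a2 differed by 0.22 ± 0.0521 with no overlap, while 2 of the 16 endoderm markers tested, these same genes, were higher at an unadjusted p under 0.05. Tcf25 (0.16 ± 0.038) and Cfdp1 (0.17 ± 0.0429), a chromatin protein gene, stood at 225 to 228 CPM and 215 to 219 CPM in vector and were higher in every LbNOX library.

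Genes along the whole of chromosome 8 were slightly higher in LbNOX cells. Of 9961 genes whose mean reached 3 log2 CPM, 551 lie on chromosome 8. Their median difference was 0.0735, a level 5.23% higher, against 0.000772 over all 9961. Of the 551 genes, 468 (84.9%) had a higher mean in LbNOX cells. At an unadjusted p under 0.05, 83 were higher (15.1%) and 0 lower, where all 9961 genes gave 2% higher and 1.54% lower. In 134 genes (24.3%) every LbNOX library lay above every vector library and in 2 below, where the share over all 9961 genes was 5.13% above and 4.46% below. The genes are not independent of each other, and the chromosome was singled out after its values were seen.

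Each library carried the difference. The median deviation of chromosome 8 genes from the mean of the 6 libraries was -0.029, -0.040 and -0.036 log2 CPM in the vector libraries and 0.045, 0.052 and 0.020 log2 CPM in the LbNOX libraries. The groups did not overlap, and LbNOX replicate 3 was the lowest of its group. With 3 libraries against 3 an exact 2-sided permutation test cannot give a p below 0.1. When the genes were ordered along the chromosome and divided into 10 stretches with about the same number of genes, the median difference lay between 0.0502 and 0.0919 in each, so no single segment made the value. On the other chromosomes the median ran from -0.0155 on chromosome 11 to 0.0215 on chromosome 1, and 41.6% to 65.6% of genes had a higher mean. Without vector replicate 2 and LbNOX replicate 3 together, the chromosome 8 median was 0.0798, and with TMM factors taken from chromosomes other than 8, X and Y it was 0.0764, both chosen after the data were seen. Gain of chromosome 8 in part of the cells is a known change of mouse ES cell cultures. DNA copy number was not measured in these files, and its part in the result was not tested.

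**Figure D2:**
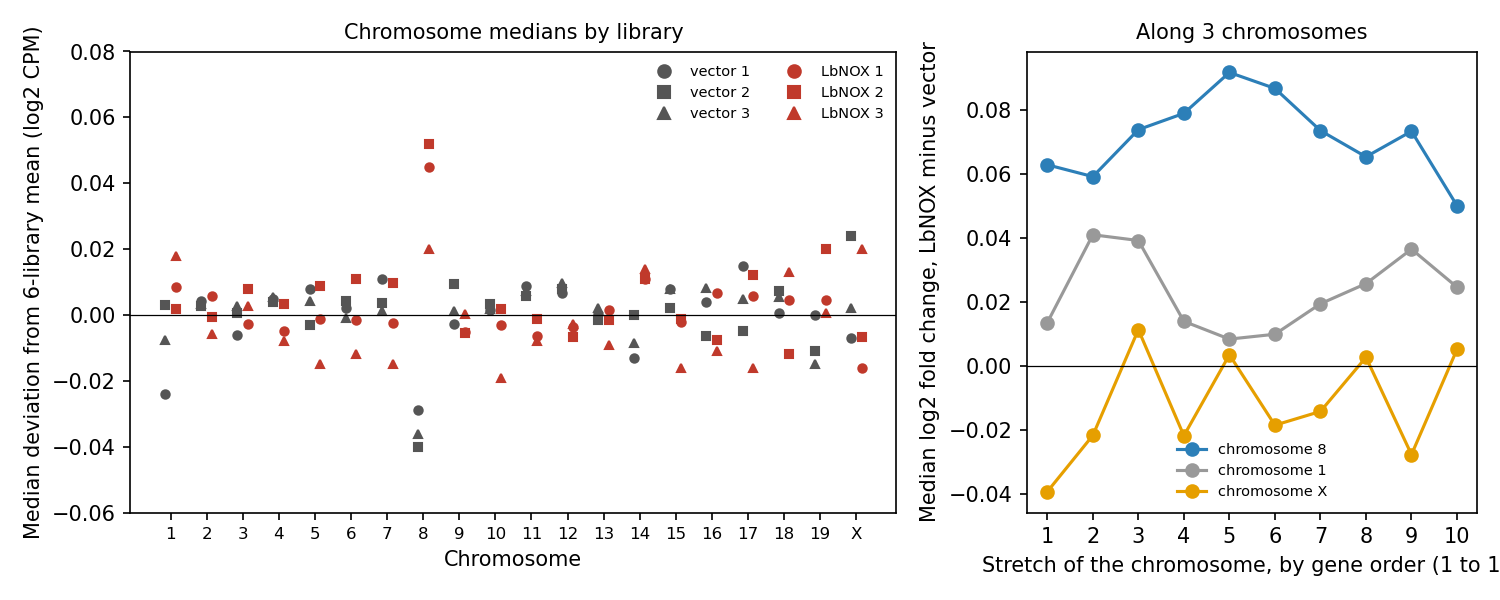
Left, median deviation of each library (log2 CPM) from the mean of the 6 libraries, by chromosome, for genes averaging 3 log2 CPM or more, grey for vector and red for LbNOX. Right, median log2 fold change in 10 stretches of equal gene number along chromosomes 8, 1 and X. The groups are widest apart on chromosome 8, with vector at -0.029 to -0.040 and LbNOX at 0.020 to 0.052, and every stretch of chromosome 8 lies above 0.05.

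Genes of the metabolic and pluripotency lists lie on chromosome 8 too. Cox4i1, a subunit of cytochrome c oxidase, had 400, 395 and 381 CPM in vector and 413, 438 and 412 CPM in LbNOX cells (0.10 ± 0.0399; adjusted p = 1). It was the 1 gene of 37 nuclear respiratory chain genes whose unadjusted p fell under 0.05. Got2, the mitochondrial aminotransferase of the malate-aspartate shuttle, had 164, 163 and 162 CPM against 169, 168 and 170 CPM (0.05 ± 0.0392). The groups did not overlap for Got2, yet the difference was near the median of its chromosome. Of the stretches of Got2 31.1% occur in other loci, and of those of Cox4i1 13.6%, which adds uncertainty to both counts. Tfdp1, a partner of E2F factors named after its values were seen, differed by 0.16 ± 0.0416, with 22% of its stretches shared. The naive factors Zfp42 (0.09 ± 0.107) and Klf2 (0.08 ± 0.107) and the antioxidant gene Hmox1 (0.12 ± 0.113) lie there too and overlapped between groups.

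The remaining genes next by p-value lay on other chromosomes. AU018091 (-0.29 ± 0.0501; adjusted p = 0.105, edgeR) and Lncenc1, a long non-coding RNA of naive ES cells (-0.33 ± 0.0652; adjusted p = 0.235), were lower in every LbNOX library. Of 26 imprinted genes tested, 4 were lower and 0 higher at an unadjusted p under 0.05, where all genes tested gave 1.74% lower and 2.02% higher. Meg3, a maternally expressed RNA of the Dlk1-Dio3 region, had 17.5, 16.6 and 20 CPM in vector and 14.3, 12.6 and 12.2 CPM in LbNOX cells (-0.47 ± 0.101; adjusted p = 0.421). Its neighbour Rian differed by -0.72 ± 0.188 and H19, of another imprinted region, by -0.72 ± 0.176 (adjusted p = 1 for both). The median of the 26 was -0.051, against -1.08e-05 over all genes tested. Meg3 and H19 share 11.5% and 5.39% of their stretches with other annotated RNAs, which adds uncertainty to their counts.

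The count of called genes rested on single libraries. Leaving out the third vector library ended every call, with 438 genes then at an unadjusted p under 0.05 in edgeR and 15 called by DESeq2 on all 6 libraries. The count was 2 when the first vector library or the first LbNOX library was left out. It was 3 and 13 when LbNOX library 2 or 3 was dropped, and 4 for vector library 2. Without vector replicate 3 the adjusted p of Ddx3y was 0.0617, the highest over 16 alternatives (lowest 2.07e-23), and its difference stayed between -2.45 and -1.98. Uty reached 0.0939 there (range 3.54e-17 to 0.0939), with differences from -1.98 to -1.63. Klhl13 was not called under 3 of 16 alternatives (adjusted p up to 0.106), Pnma5 under 5 (up to 0.152), Efhc2 under 7 of 15 (up to 0.229) and Pou4f2 under 8 of 16 (up to 0.317). The direction of the 6 genes was the same under every one of those alternatives.

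Metabolic genes were measured closely enough to bound their differences. In 15 lists of metabolic genes and 3 of pluripotency genes, 325 of the 329 listed genes present in the table were tested and 0 were called. The 95% interval of the difference lay within 25% for 257 (79.1%), within 1.5-fold for 305 (93.8%) and within 2-fold for 319 (98.2%). Over all genes tested the shares were 54.1%, 71.9% and 86.8%, and over the 9961 genes of 3 log2 CPM or more they were 86.5%, 99.0% and 99.9%. Of the 20 listed genes outside 1.5-fold, 12 had a mean under 3 log2 CPM. The other 8 were Klf4, Chac1, Txnip, Asns, Gpt2, Sall2, Prdm14 and Pycr1.

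Of 23 genes that carry and use pyruvate and lactate, 15 were bounded within 25% and 2 were not bounded within 2-fold. Slc16a1, the main importer and exporter of pyruvate and lactate, had an interval of -0.15 to 0.0485, with 154, 153 and 159 CPM in vector and 149, 143 and 157 CPM in LbNOX cells. For Slc16a3, the lactate exporter, the interval was -0.102 to 0.114. Ldha, which turns pyruvate into lactate while oxidising NADH, had 1520, 1590 and 1480 CPM against 1450, 1520 and 1550 CPM (-0.02 ± 0.0384). Its partner subunit Ldhb had 101, 108 and 96.1 CPM against 87.5, 90.5 and 95.2 CPM (-0.16 ± 0.0556; unadjusted p = 0.013; adjusted p = 1). Ldhb was the 1 of 23 genes of this list with an unadjusted p under 0.05, and 33.8% of its stretches occur in other loci such as pseudogenes. Mpc1 and Mpc2 form the mitochondrial pyruvate carrier. Mpc1 was counted at only 1.63 to 3.06 CPM, with an interval of -0.462 to 0.606 and 31.1% shared sequence, so little can be said of it. The carrier Slc5a8 had the largest difference of the list and a wide interval, 24 reads in vector and 51 in LbNOX cells (0.75 ± 0.432; -0.186 to 1.68). Pdk4, a kinase that shuts off pyruvate dehydrogenase, had 7.56, 6.96 and 7.19 CPM in vector and 6.86, 5.73 and 5.94 CPM in LbNOX cells, lower with no overlap (-0.24 ± 0.126). The list's median was 0.0194, and 20 of its 23 genes were bounded within 1.5-fold.

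The enzymes that move cytosolic electrons into mitochondria were bounded as closely. Got1, Mdh1 and Mdh2 of the malate-aspartate shuttle had intervals of -0.0916 to 0.0782, -0.0522 to 0.117 and -0.109 to 0.104. Gpd2, the mitochondrial enzyme of the glycerol phosphate shuttle, had 154, 152 and 154 CPM in vector and 150, 147 and 158 CPM in LbNOX cells. Of the 11 shuttle genes, 10 lay within 25% and the median was -0.0279. Nampt, the rate-limiting enzyme of NAD+ salvage, had an interval of -0.0563 to 0.131, and Nnt, which passes electrons between NADH and NADP+, one of -0.188 to 0.1. Of 21 genes of NAD synthesis and use, 20 lay within 1.5-fold and 0 had an unadjusted p under 0.05.

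Central carbon metabolism showed the same. All 19 genes of glucose uptake and glycolysis lay within 1.5-fold. Pkm, the last enzyme of glycolysis, was between 3310 and 3540 CPM in all 6 libraries (-0.02 ± 0.0341), and Hk2, the first, between 375 and 411 CPM (-0.04 ± 0.0408). For Pkm 35.3% of stretches occur in other loci, which adds uncertainty to its count. Gapdh had an unadjusted p of 0.0305 (0.18 ± 0.073; adjusted p = 1), but it was counted at only 31.1 to 39.6 CPM and 28.2% of its stretches occur in other loci, so its value is uncertain. Of 26 genes of the tricarboxylic acid cycle, 25 were within 25%. Sucla2, a subunit of succinyl-CoA synthetase, was the 1 with an unadjusted p under 0.05, at 108, 106 and 108 CPM in vector and 118, 117 and 113 CPM in LbNOX cells (0.11 ± 0.0441). All 37 nuclear respiratory chain genes and all 23 genes of the pentose phosphate pathway and nucleotide synthesis lay within 25%. Lipid genes had medians below that of all genes, which was not particular to them. The 7 targets of the glucose sensor MondoA had a median of -0.0648 and the 11 shuttle genes one of -0.0279. The pyruvate and lactate list, at 0.0194, and the 37 nuclear respiratory chain genes, at 0.0102, lay on the other side. The median was -0.0586 for 14 genes of fatty acid synthesis, of which Scd2 (-0.13 ± 0.0462) and Acacb (-0.25 ± 0.0894) had an unadjusted p under 0.05, and -0.0294 for 24 of cholesterol synthesis.

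**Figure D3:**
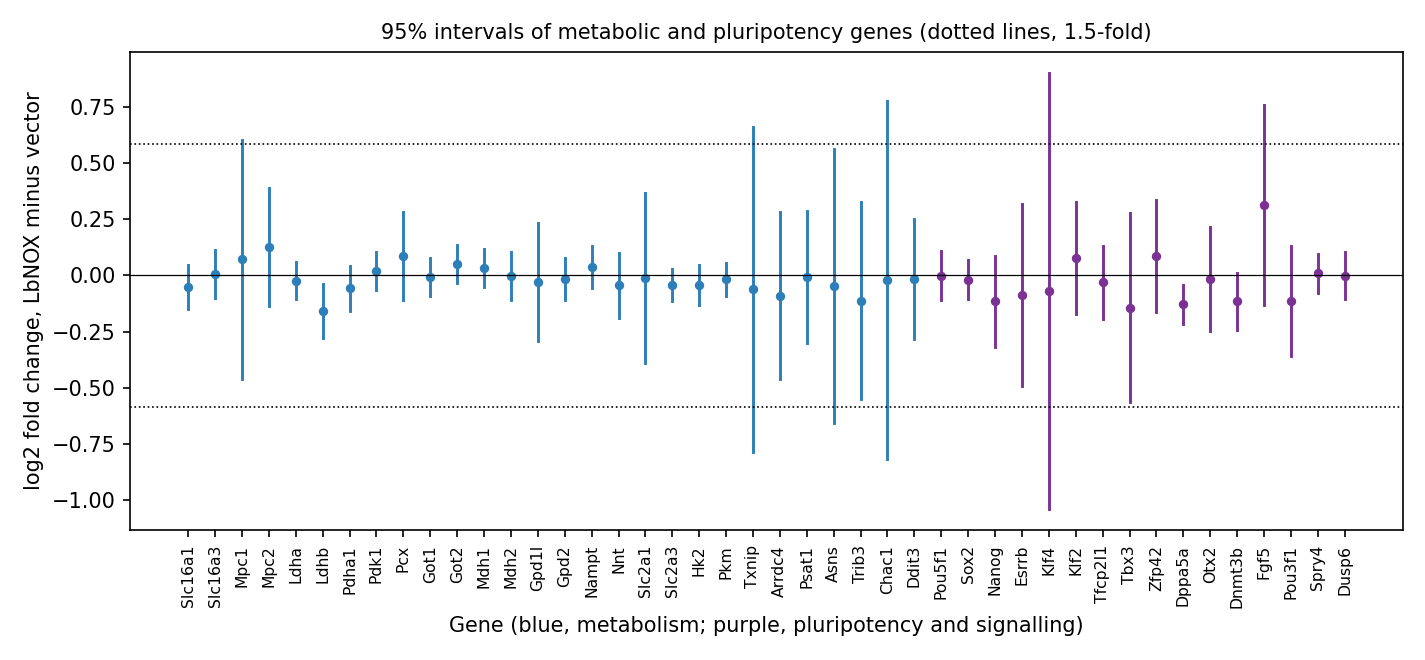
Log2 fold change, LbNOX minus vector, with its 95% interval from the edgeR fit, for genes of metabolism (blue) and of pluripotency and signalling (purple). Dotted lines mark 1.5-fold. Most intervals lie inside the dotted lines, and the widest is that of Klf4, from -1.04 to 0.902.

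Genes of metabolic stress and supply were bounded less closely where they varied between libraries. Of 30 ATF4 targets 25 lay within 1.5-fold, and 1, the mTORC1 inhibitor Ddit4, had an unadjusted p under 0.05 (-0.14 ± 0.0624). All 14 genes of serine synthesis and one-carbon metabolism and all 16 tested genes of glutathione and NRF2 lay within 1.5-fold, with 0 at an unadjusted p under 0.05. Of 18 HIF1 targets, which respond to low oxygen, Ndrg1 (0.27 ± 0.116) and the histone demethylase Kdm3a (0.09 ± 0.0415) were higher at that threshold and 0 lower.

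Markers of most other cell types had wide intervals, with 5 of 12 fibroblast, 9 of 16 endoderm and 1 of 6 mesoderm markers bounded within 1.5-fold, except trophoblast, with 9 of 11. Vim, an intermediate filament gene, had 70.6, 66.8 and 70.6 CPM in vector and 83.1, 82.7 and 74.6 CPM in LbNOX cells with no overlap (0.21 ± 0.0568; adjusted p = 1, edgeR). It was the 1 of 12 fibroblast markers tested with an unadjusted p under 0.05, while Col1a1 differed by 0.11 ± 0.0907. Of 11 trophoblast and 6 mesoderm markers tested, 0 had an unadjusted p under 0.05. The Wnt target Tcf7 was lower (-0.14 ± 0.0562; unadjusted p under 0.05), the 1 of 12 in its list.

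Pluripotency genes were bounded too, except where the libraries varied within both groups. All 10 core pluripotency genes lay within 25%, Pou5f1 at -0.109 to 0.108 and Sox2 at -0.105 to 0.069. Of 18 naive genes 16 lay within 1.5-fold, with 1 higher and 1 lower at an unadjusted p under 0.05. Nr5a2, an orphan nuclear receptor of the naive network, had 115, 129 and 115 CPM in vector and 134, 128 and 146 CPM in LbNOX cells (0.19 ± 0.0611; adjusted p = 1). Dppa5a, an RNA-binding protein gene of ES cells, had 678, 691 and 663 CPM against 590, 623 and 647 CPM (-0.13 ± 0.0406; adjusted p = 1). The groups did not overlap for Dppa5a and did for Nr5a2, and 58.1% of the stretches of Dppa5a occur in other genes, which makes its count uncertain. Of 14 formative and primed genes, among them Otx2 (-0.02 ± 0.103), Dnmt3b (-0.12 ± 0.0573) and Fgf5 (0.32 ± 0.204), 0 had an unadjusted p under 0.05. Of 19 targets of ERK signalling 17 lay within 1.5-fold, Dusp6 at -0.103 to 0.103.

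The largest source of variation crossed the groups. The first principal component of log2 CPM took 30.1% of the variance. Vector replicate 2 and LbNOX replicate 3 lay at 22.3 and 22.4 on it, and the other 4 libraries between -13.7 and -8.23. The second component, with 19.8%, separated the groups, with vector at -6.61, -10.7 and -19.5 and LbNOX at 12.4, 10.9 and 13.5. After the group means were subtracted, vector replicate 2 and LbNOX replicate 3 correlated at 0.28 across genes, while libraries of the same replicate number correlated at 0.13, -0.16 and -0.11. These correlations are descriptions across genes. The totals of the pair were 19536661 and 28758660 counts, and the others ran from 16521594 to 30008895. The labels give no batch or date for these libraries, and the origin of the split was not tested.

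Metallothioneins stood at the low end of the component. Mt1 and Mt2, neighbouring genes of chromosome 8, encode small proteins that bind zinc and copper. Mt2 had 215, 104 and 193 CPM in vector and 193, 206 and 95.3 CPM in LbNOX cells. Vector replicate 2 and LbNOX replicate 3 were thus near 100 CPM and the rest near 200, while the difference between groups was -0.06 ± 0.444. Mt1 had 153, 87.5 and 138 CPM and 141, 144 and 79.9 CPM, the same pattern. For Mt2, 58.9% of stretches also occur in other loci, and for Mt1 0%. Klf4, the naive factor, had 74.9, 41.7 and 68.7 CPM and 70.9, 69.5 and 37.3 CPM. Cobl, an actin nucleator, Gbx2, a homeobox factor of the naive network, Septin1 and Gli2 were low in the same 2 libraries.

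Most targets of the stress factor ATF4 followed the same split. Of 30 tested, 21 (70%) had both libraries of the pair below the other 4 and 1 had both above, against 17.2% and 17.1% of all genes tested. The split was not particular to ATF4 targets. Both libraries were below for 13 of 18 naive genes (72.2%) and 9 of 12 LIF receptor and STAT3 targets (75%), with 1 above in each list. ATF4 raises genes of amino acid supply when amino acids are short or mitochondria are stressed. Asns, which makes asparagine, had 325, 226 and 310 CPM in vector and 310, 316 and 210 CPM in LbNOX cells. Chac1, which degrades glutathione, had 28.4, 15.6 and 26.8 CPM and 26.4, 28 and 15.9 CPM, and Trib3, a pseudokinase, 47.2, 36.5 and 47.9 CPM and 43.6, 47.4 and 30.9 CPM. All 3 were low in the 2 libraries set apart, and their differences between groups were -0.05 ± 0.231, -0.02 ± 0.316 and -0.11 ± 0.182. Ddit4 went the other way, with 85.3, 91.6 and 86.4 CPM and 77.7, 74.4 and 87.3 CPM, and Ddit3, another ATF4 target, ranged without the split from 7.78 to 9.64 CPM. The mean deviation of the 30 ATF4 targets was -0.12 log2 CPM in vector replicate 2 and -0.26 in LbNOX replicate 3, and 0.066 to 0.13 in the other 4 libraries. Txnip, which slows glucose uptake and is set by the glucose sensor MondoA, had 117, 74.6 and 112 CPM and 109, 113 and 69.8 CPM. Its stretches are shared to 17.5%, mostly with a predicted antisense locus. Of 7 MondoA targets tested, 2 (28.6%) had both libraries of the pair below and 1 (14.3%) both above. The shares over all genes tested were 17.2% and 17.1%.

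Slc2a1, the glucose transporter GLUT1, moved the other way, with 708, 911 and 711 CPM in vector and 701, 708 and 900 CPM in LbNOX cells. Also high in vector replicate 2 and LbNOX replicate 3 were Vcan, a matrix proteoglycan (67.4, 111 and 79.4 CPM in vector, 66.2, 69.4 and 117 CPM in LbNOX cells), and Ptch1, the hedgehog receptor (323, 466 and 346 CPM, then 323, 297 and 485 CPM). The X-linked locus AU015836 had 59.4, 118 and 62.2 CPM, then 50.9, 56.0 and 123 CPM, high in the same pair. The 18 naive genes had mean deviations of -0.14 and -0.18 log2 CPM in the pair and 0.05 to 0.11 in the other 4 libraries. The 10 core genes moved less, between -0.037 and 0.041, with the pair lowest at -0.031 and -0.037. The 13 p53 targets were higher in the pair, at 0.12 and 0.11, against -0.075 to -0.043 elsewhere. The 37 respiratory chain genes lay between -0.059 and 0.068, with the pair lowest at -0.031 and -0.059. Both libraries of the pair were below the other 4 for 16 of the 37 (43.2%) and above for 0. Over all genes tested those shares were 17.2% and 17.1%.

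Promoters of 6 genes that were low in the pair are shown to let a reader see short elements known from textbook work on metal, amino acid and glucose responses. The 6 were picked after their values and matches were seen, so the matches carry no weight. Sequences are from RefSeq on GRCm38.p6, from 250 bases before to 30 after the annotated start, and 144 of 178 named genes had an entry. Each is written 5′ to 3′ on the strand of the gene, and capitals mark the elements, found on either strand. For Mt1 (chr8:94178839-94179118, plus strand) and Mt2 (chr8:94172368-94172647, plus strand) these are the core of the metal response element, TGCACNC or TGCGCNC, where N is any base.
Mt1: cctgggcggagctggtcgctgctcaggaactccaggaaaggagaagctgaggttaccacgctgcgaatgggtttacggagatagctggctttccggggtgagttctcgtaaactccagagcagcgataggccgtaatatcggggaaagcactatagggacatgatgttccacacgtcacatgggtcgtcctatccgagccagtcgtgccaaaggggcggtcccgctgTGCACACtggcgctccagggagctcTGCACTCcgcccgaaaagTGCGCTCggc
Mt2: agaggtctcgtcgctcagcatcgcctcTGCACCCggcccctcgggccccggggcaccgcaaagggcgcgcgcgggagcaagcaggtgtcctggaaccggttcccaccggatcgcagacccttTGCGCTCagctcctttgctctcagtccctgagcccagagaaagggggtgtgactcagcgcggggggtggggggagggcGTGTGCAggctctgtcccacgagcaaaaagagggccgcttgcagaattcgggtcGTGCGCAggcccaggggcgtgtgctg
Mt1 holds 3 of these elements and Mt2 holds 4, and 4 of the 7 genes with an entry among the 8 at the low end of the component hold at least 1. Of 27025 promoter windows of 300 bases, 25.6% hold at least 1 and 2% at least 3. For Asns (chr6:7693180-7693459, minus strand), Chac1 (chr2:119350992-119351271, plus strand) and Trib3 (chr2:152344031-152344310, minus strand), capitals mark TGATGNAA, the composite element that ATF4 is known to bind with a C/EBP partner.
Asns: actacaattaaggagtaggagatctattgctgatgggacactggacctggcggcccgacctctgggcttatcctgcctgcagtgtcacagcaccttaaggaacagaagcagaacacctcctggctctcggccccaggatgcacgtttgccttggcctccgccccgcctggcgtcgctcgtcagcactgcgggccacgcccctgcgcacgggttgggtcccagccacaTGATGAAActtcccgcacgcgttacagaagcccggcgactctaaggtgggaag
Chac1: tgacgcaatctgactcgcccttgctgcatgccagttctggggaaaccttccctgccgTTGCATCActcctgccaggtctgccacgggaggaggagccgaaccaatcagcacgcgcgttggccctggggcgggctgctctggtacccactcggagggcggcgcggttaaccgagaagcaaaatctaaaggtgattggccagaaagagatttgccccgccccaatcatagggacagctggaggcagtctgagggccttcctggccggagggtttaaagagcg
Trib3: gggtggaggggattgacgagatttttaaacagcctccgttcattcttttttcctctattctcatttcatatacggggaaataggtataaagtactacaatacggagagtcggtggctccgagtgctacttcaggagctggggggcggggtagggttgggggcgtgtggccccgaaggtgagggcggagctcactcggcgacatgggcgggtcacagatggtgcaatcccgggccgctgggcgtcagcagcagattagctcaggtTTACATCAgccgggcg
Each of the 3 windows holds 1 match, and 4.06% of all windows hold one. Over the whole list, 9 of the 25 ATF4 targets with an entry hold it. For Txnip (chr3:96557707-96557986, plus strand), capitals mark the carbohydrate response element through which MondoA acts.
Txnip: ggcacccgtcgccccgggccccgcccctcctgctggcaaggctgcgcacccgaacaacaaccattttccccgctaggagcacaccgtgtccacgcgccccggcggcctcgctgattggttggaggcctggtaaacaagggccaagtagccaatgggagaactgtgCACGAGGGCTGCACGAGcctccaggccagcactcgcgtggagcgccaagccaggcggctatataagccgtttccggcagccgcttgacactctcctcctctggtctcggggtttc
This longer element occurs in 0.363% of windows. A match is a description of letters and not a measured binding site.

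**Figure D4:**
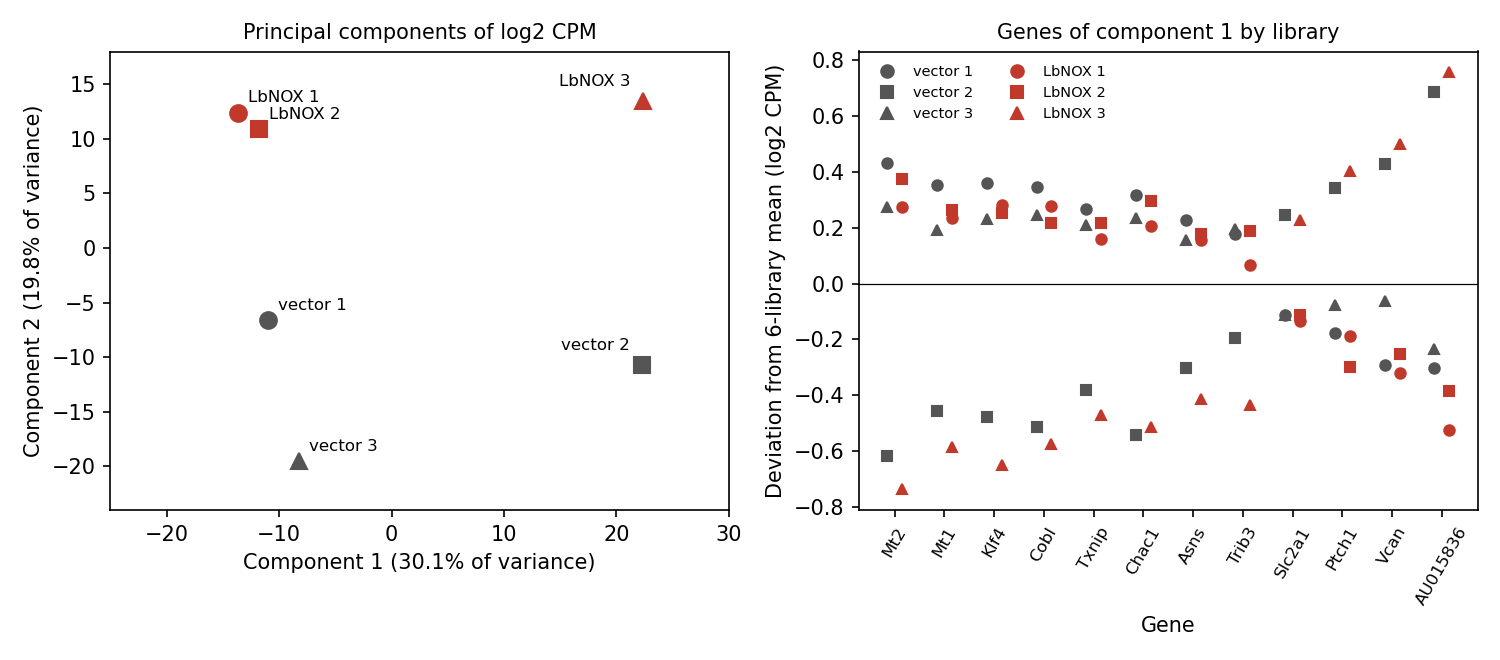
Left, the first and second principal components of log2 CPM, 1 symbol per library (grey, vector; red, LbNOX). Right, deviation of each library from the mean of the 6 libraries (log2 CPM) for 12 genes of component 1. Vector replicate 2 and LbNOX replicate 3 lie together at 22.3 and 22.4 on component 1, and Mt2, Klf4 and Asns are low and Slc2a1, Ptch1 and Vcan high in both.

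The spread within groups was set beside that of the other table. The biological coefficient of variation was 5.6% among vector and 7.38% among LbNOX libraries, against 2.54% to 3.66% in the 3 groups of the other table kept in SL. Between libraries of 1 group the chi-square per degree of freedom over genes was 2.32 to 6.47 in vector and 2.84 to 10.6 in LbNOX cells, and 1.87 to 14 in the other table, with the highest value in the chr8A group. Without vector replicate 2 and LbNOX replicate 3 together, a setting chosen after the data were seen, 49 genes were called, 22 higher and 27 lower, all 6 named above among them. Of these 49 genes, 26 lay elsewhere than on chromosomes 8, X and Y. On chromosome 8 lay 13 of the 22 higher genes, and on the X and Y chromosomes 10 of the 27 lower genes. In the fit of all 6 libraries, chromosome 8 held 826 of the 16119 genes tested, X 562 and Y 6. Without vector replicate 2 and LbNOX replicate 3, 95.4% of the metabolic and pluripotency genes were bounded within 1.5-fold.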

How the data were processed

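Poly(A) RNA of 6 libraries was measured with a stranded kit, per the labels' protocols. Per the submitters' processing notes, the authors used DRAGEN 3.10, featureCounts of Subread and the genome build GRCm39. No source used here says whether the counting used strand. Per gene, the deposited table holds raw counts for these 6 libraries, and it was normalised apart from the other table of the series. Mitochondrial genes were not analysed here.

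Counts were filtered with filterByExpr, scaled by TMM and fitted with edgeR 4.0.16 (R 4.3.3; robust quasi-likelihood test, group as the 1 term); intervals are 95%. CPM values are the deposited counts divided by the scaled total. The code was tested on simulated data. Log2 CPM for principal components used a prior count of 2. Chromosomes and gene order came from RefSeq on GRCm38.p6, which matched 98.7% of the genes tested; no coordinates were carried between builds. Shared sequence is the percent of a gene's 30-base stretches found in GENCODE vM21 transcripts of other genes on either strand, and 59 of 177 named genes shared at least 5%.

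The comparison and the gene lists were chosen with earlier results of these data known. Genes were named by rule: every called gene; the 8 uncalled genes of smallest p whose groups do not overlap and whose mean reaches 3 log2 CPM; a set list of metabolic and pluripotency genes; up to 3 genes of smallest p in each list described; all detected sex-linked genes of the lists; and the 8 genes at each end of component 1 averaging 5 log2 CPM or more. Predicted genes were counted and not named. Alternatives were RLE factors, other filters, DESeq2 1.42.0, limma 3.58.1 voom with quality weights, equal depth, a replicate block and leaving out each library.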

Additional observations from a re-analysis of the deposited data

How the results depend on the processing

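The 6 calls (1 higher, 5 lower) became 24 (2 and 22) with no filter on low counts, 15 (1 and 14) with DESeq2 and 13 (2 and 11) with limma voom. With a minimum of 1 CPM in 3 libraries 4 were called and with non-robust dispersions 5, with 0 higher in both. With the replicate block 3 genes were called, 0 higher and 3 lower. The labels do not say whether the replicate numbers pair libraries of the groups. Deviations of same-numbered libraries correlated at 0.13, -0.16 and -0.11, and these values cannot decide it because 2 libraries of unlike number stood apart. Leaving out 1 library gave 0 to 13 calls, 0 to 4 higher and 0 to 9 lower. Without vector replicate 2 and LbNOX replicate 3 there were 49 (22 and 27). RLE factors, equal depth and TMM factors from other chromosomes each gave 6. The chromosome 8 median was 0.0676 to 0.0820 over all settings, each within 0.0124 of the reported 0.0735, the SD of the chromosome's median between libraries of a group. The share of metabolic and pluripotency genes bounded within 1.5-fold was 89.8% to 92.6% when 1 library was left out and otherwise 91.8% to 96.3% (96.3% with non-robust dispersions). Component 1 took 54.4% of the variance over genes averaging 3 log2 CPM or more, with the same 2 libraries apart. The cause of each change was not tested. The median SE was 0.0987, and 0.0671 for genes of at least 3 log2 CPM. The smallest difference called was 0.56 (Pou4f2, SE 0.0815), while Col4a1 at 0.24 with an SE of 0.0455 was not called.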

Other observations

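Sex-linked genes lower with LbNOX than with vector were set beside the SL libraries of the other table, which was normalised separately and not tested against this one. Those compared were Ddx3y, Uty, Eif2s3y, Klhl13, Pnma5, Efhc2, Fmr1nb, Rhox5, Rhox6 and Rhox9. All had lower levels in the vector cells than in those libraries, by very different amounts. Usp26 and Nxf3 were not compared. Ddx3y stood at 101 ± 3.03 CPM (SD, n = 3) in the SL libraries labelled chr8A and at 113 ± 4.01 and 112 ± 3.04 CPM in the SLC16A1 clones, against 6.66 ± 0.542 CPM in vector and 1.47 ± 0.476 CPM in LbNOX cells. Uty was at 50.4 ± 0.0948 CPM in chr8A, and Eif2s3y at 97.9 ± 2.34 CPM. Klhl13 was at 643 ± 15.9 CPM in chr8A against 79.7 ± 1.52 CPM in vector cells, and Rhox5 at 17.9 ± 1.68 CPM against 3.28 ± 0.144 CPM. The gap was smaller for Pnma5, at 5.37 ± 0.273 CPM in chr8A and 2.46 ± 0.372 CPM in vector cells, and for Efhc2, at 1.35 ± 0.124 and 0.726 ± 0.152 CPM. Pou4f2 went the other way, with 1.46 ± 0.128 CPM in chr8A and 22.3 ± 1.21 CPM in vector cells, the side on which LbNOX cells stood higher still. Col4a1 and Col4a2 on chromosome 8 differed from this, with LbNOX nearer to chr8A than vector was. Col4a1 means were 131, 132 and 105 CPM in chr8A and SLC16A1 clones 1 and 2, 93.6 CPM in vector and 111 CPM in LbNOX cells. Those of Col4a2 were 92.6, 86.5, 67.5, 68.6 and 80 CPM in the same order. Xist was at 9.67 ± 1.55 CPM in chr8A.

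Promoter windows of the called genes differ in CpG content: over 300 bases Ddx3y holds 17 CpG, Klhl13 15, Pou4f2 18, Uty 10, Efhc2 4 and Pnma5 1, where the median of all windows is 7.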
